A study of Mus musculus with 4 samples.

Results

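The Ly6 region is a 600 kb stretch of mouse chromosome 15, from 74500000 to 75100000 on the mm9 build, that holds Psca, Ly6d, Ly6e and Ly6a. Its members are the peaks whose midpoints fall between these bounds: 2 of the 4130 p63 peaks and 94 of the 183757 H3K27ac peaks of the study. The region was chosen by a measured value, because its widest H3K27ac peak is the third widest of the whole list, so that peak and the coverage it brings are given as descriptions without a test. The 4 genes were placed at approximate mm9 positions of about 74.545 Mb (Psca), 74.59 Mb (Ly6d), 74.785 Mb (Ly6e) and 74.825 Mb (Ly6a). Starts of peaks are counted from 1.

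The peaks come from chromatin immunoprecipitation and sequencing (ChIP-seq) of primary epithelial progenitor cells of the salivary gland of adult mice aged 12 weeks with wild-type p63. The groups are a p63 ChIP made with the mouse monoclonal antibody 4A4, an H3K27ac ChIP, the input of the p63 ChIP and the input of the H3K27ac ChIP, with 1 library in each. The p63 libraries are titled PSECS and the H3K27ac libraries pSG. Whether both came from the same preparation of cells was not checked. p63 is a transcription factor of basal epithelial cells, and H3K27ac is an acetylated histone found at active promoters and enhancers. With 1 ChIP library against 1 input there is no replicate error, and the lists hold positions but no read numbers, so depth is unknown and no value below carries a test. The cell type could not be checked against its markers, since no mm9 annotation was used here and a peak is not a measure of expression.

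Genes of the Ly6 family encode small cell-surface or secreted proteins that share a compact fold held together by disulphide bonds, and most are tethered to the membrane by a lipid (GPI) anchor. Ly6a, also called Sca-1, is a mouse marker used to isolate stem and progenitor cells and is induced by interferon. Ly6e is an interferon-responsive surface protein known for effects on the entry of viruses. Ly6d marks an early step of lymphoid development and is also a surface protein of stratified epithelia. Psca, the prostate stem cell antigen, is found on the surface of several epithelia. In the GRCm38 gene table the 4 genes stand in the order Psca, Ly6d, Ly6e, Ly6a, the order of the positions used here.

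Across the region, acetylation was called over many bases in the lower part and few in the upper part. H3K27ac peaks covered 42016 bases in the Ly6 region, or 7.0% of its length. The 4299 windows of the same length across the genome had a median of 7565 bases (quartiles 2974.5 and 15763.5). The Ly6 region ranked 111 among them, and 2.58% of windows had at least its coverage. By number of peaks it ranked lower, at 375, with 94 peaks against a median of 34 over all windows. Without its widest peak, which the choice of the region rests on, it held 34593 bases and ranked 202. The rank also depends on where windows begin: the window starting 300 kb lower ranked 66, and the one starting 300 kb higher, which lies mostly above Ly6a, ranked 1524.

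The H3K27ac peaks of the region were wider than most peaks of the list. Their median width was 252 bases (quartiles 181 and 407) in the region and 191 bases (quartiles 155 and 260) in the whole list. The median was still 252 bases without the widest peak. The smallest width in the list, 150 bases, was that of 12 of the 94 peaks in the region (12.8%) and of 21.7% of all peaks. Of the 94 peaks, 5 (5.32%) were at least 1000 bases wide, against 1.91% of all H3K27ac peaks.

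**Figure D1:**
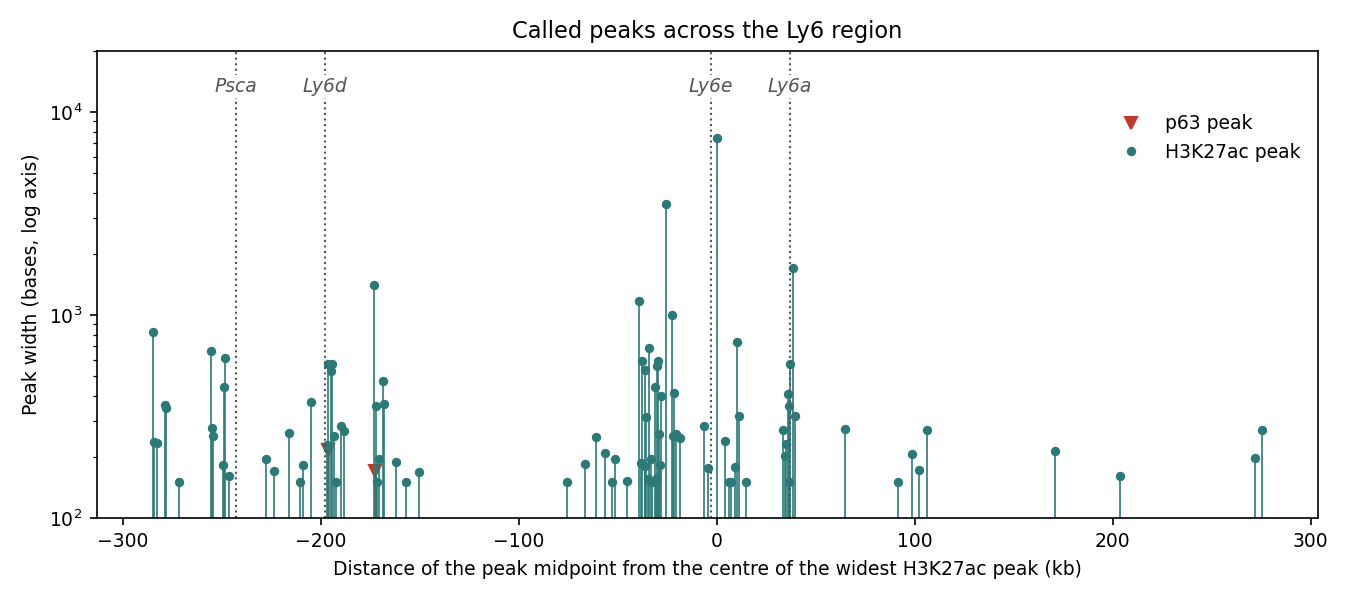
Each H3K27ac peak (circle) and p63 peak (triangle) of the Ly6 region, drawn by the distance of its midpoint from the centre of the widest H3K27ac peak (kb) and by its width in bases on a log axis, with dotted lines at the approximate gene positions. The widest peaks, of 7423 and 3505 bases, stand at and below Ly6e, both p63 peaks lie beside or above Ly6d, and the upper end of the region holds few and narrow peaks.

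In the 50 kb steps counted from the start of the region, the step that holds Ly6e had the most acetylated bases. Counted from the low end, the first step, with Psca, had 13 H3K27ac peaks and 4732 covered bases. The second, with Ly6d, had 14 peaks and 4189 bases, and the next one had 9 peaks and 3445 bases. The fourth step had no H3K27ac peak, and the fifth had 9 peaks and 2642 bases. The step with Ly6e, from 74750001 to 74800000, had 30 peaks that covered 20726 bases, which is 41.5% of the step and 49.3% of all acetylated bases in the region. This step also holds most of a second acetylated stretch, below Ly6e. With steps offset by 25 kb the top step, with 31.8%, was the one from 74725001 to 74775000, without Ly6e, and the step with Ly6e had 27.2%. Among 51372 steps across the genome, the step from 74750001 to 74800000 ranked 20 by coverage, and without the widest peak it held 13303 bases and ranked 100. The next step, with Ly6a, had 10 peaks and 4369 bases and ranked 1743. The median over all steps was 2 peaks and 433.5 bases. The steps with each of the 4 genes lay above that number of bases. So did the steps of the region with 3445, 2642, 1072 and 468 bases, which hold none of the 4 genes.

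**Figure D2:**
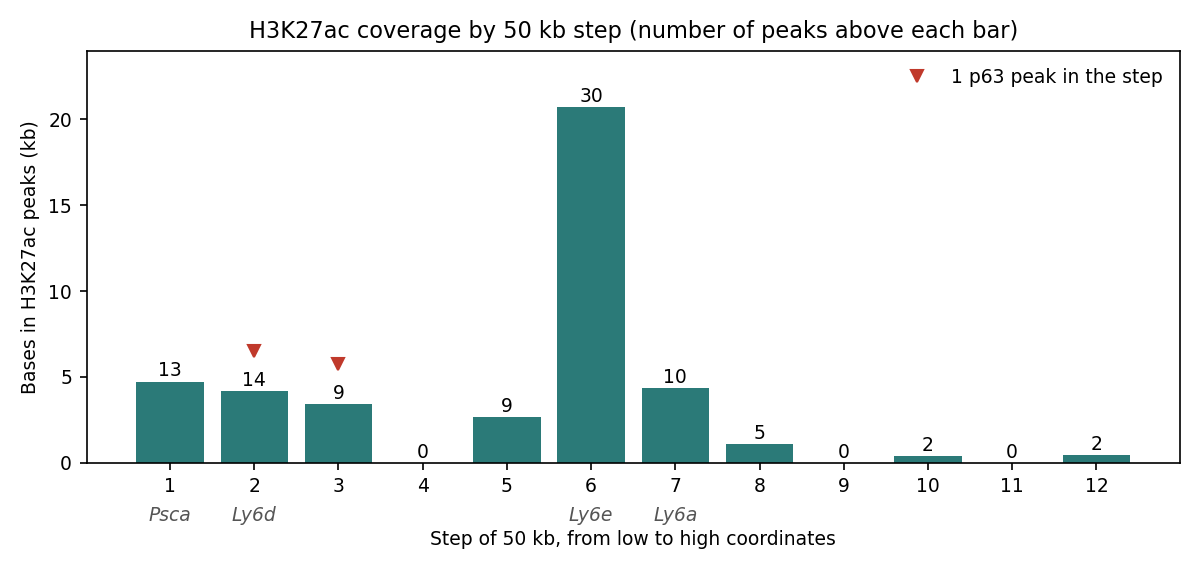
Bases covered by H3K27ac peaks (kb) in each of the 12 steps of 50 kb from low to high coordinates, with the number of H3K27ac peaks above each bar, triangles for steps with a p63 peak and gene names under their steps. The step with Ly6e reaches 20726 bases, the steps with Psca, Ly6d and Ly6a lie between 4189 and 4732 bases, and 3 steps have no peak.

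Taken gene by gene, acetylated bases within 10 kb on either side of the gene position stood in the order Ly6e, Ly6a, Ly6d, Psca. Within 25 kb Ly6d, with 4693 bases, came before Ly6a, with 4369 bases. With 1 library there is no spread against which neighbours in this order could be told apart. The positions are approximate, so a distance of a few kb to a gene is uncertain by as much. The 20 kb windows of the genome used below lie on a fixed grid, not centred on genes, and take whole peaks by midpoint. Their shares are therefore no comparison with other genes.

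Ly6e lay inside the widest H3K27ac peak of the region, at 74784450-74791872, which is 7423 bases wide. Within 10 kb of the Ly6e position there were 5 H3K27ac peaks that covered 8273 bases, or 41.4%. Of 128403 windows of 20 kb across the genome, 0.122% had at least as many. These values rest on the peak for which the region was chosen. Without it 4 peaks near Ly6e covered 850 bases, fewer than the 1394 bases near Psca, and 11.1% of windows had at least as many. The other peaks near Ly6e were narrow: 285, 176, 239 and 150 bases wide. The wide peak was separated from the peak below it by 736 bases and from the peak above it by 329 bases. Acetylation at Ly6e was therefore called as a single unbroken stretch with small peaks beside it, and when peaks at most 1 kb apart were joined it formed a domain of 8903 bases from 3 peaks, with 88.0% of its span covered.

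With peaks joined at 1 kb, the largest acetylated domain of the region was not the one over Ly6e. It ran from 74748366 to 74767355, ending 17.6 kb below the Ly6e position, and joined 22 H3K27ac peaks over 18990 bases. These peaks covered 12177 bases, or 64.1% of the span, and made up 29.0% of the acetylated bases of the region. Among the 139150 joined domains of the genome it ranked 31 by covered bases and 20 by span, whereas the domain at Ly6e ranked 103 by covered bases and 171 by span. Only 15 domains in the genome, this one included, had at least 22 peaks. Its peaks were 150 to 3505 bases wide, with a median of 357.5 bases, and the gaps between them ran from 77 to 905 bases, with a median of 214 bases. The widest of them, at 74760724-74764228, is 3505 bases wide and ranked 63 in the whole list. In the gene table the protein-coding genes between Ly6d and Ly6e are Ly6g6g, Ly6k, Gml, Gml2, Cyp11b1, Cyp11b2 and Ly6m, among them the genes of the last enzymes of corticosterone and aldosterone synthesis (Cyp11b1 and Cyp11b2). Joined over gaps of at most 500 bases, the domain at Ly6e was the larger, with 7662 covered bases over 7991, against 6092 over 7772 for the largest piece of the lower domain. Which gene lies nearest to the domain on mm9 was not determined.

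Joining peaks over longer gaps merged this domain with the one over Ly6e. At gaps of up to 5 kb they were still apart, with spans of 21380 bases for the lower domain and 21388 bases for the domain at Ly6e, and 11.7 kb between them. At gaps of up to 12.5 kb, a distance often used to define large enhancer clusters, both fell into a single domain from 74712332 to 74802844. It held 40 peaks over 90513 bases, covered 23518 bases, and ranked 75 of 53052 by covered bases. It held Ly6e and no p63 peak, and Ly6a stayed outside it.

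Ly6a had a domain of its own. Within 10 kb of its position there were 9 H3K27ac peaks that covered 4219 bases, or 21.1%, and 0.744% of 20 kb windows had at least as many. All 9 lay within 5 kb of the position, between 74821513 and 74827896, and formed a domain of 6384 bases when joined at 1 kb. This domain stayed the same at each join distance from 1 kb to 12.5 kb, because no other H3K27ac peak lay that close. The peaks of the domain were 151 to 1709 bases wide. The widest, at 74825815-74827523, is the third widest of the region and ranked 858 in the list. In the gene table Ly6i is the single protein-coding gene between Ly6e and Ly6a.

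Ly6d had no H3K27ac peak as wide as the widest at Ly6e and Ly6a, and it was the gene nearest to a p63 peak. Within 10 kb there were 9 H3K27ac peaks that covered 3230 bases, or 16.1%, and 1.34% of 20 kb windows had at least as many. The widest had 574 bases, and the median width was 284 bases, against 317 near Ly6a and 239 near Ly6e. Of the 9 peaks, 8 lay above the position and 1 below it, and 5 of them, from 74590927 to 74594622, joined into a domain of 3696 bases. Among the first 91878 rows of the H3K27ac list, peaks near Ly6d covered 1956 bases.

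Within 10 kb of the position, Psca had the lowest coverage of the 4 genes. By 50 kb steps it did not, with 4732 bases against 4369 for Ly6a and 4189 for Ly6d. The 10 kb surroundings of Psca held 4 H3K27ac peaks that covered 1394 bases, or 6.97%, and 5.98% of 20 kb windows had at least as many. All 4 lay below the position, and the nearest, at 74541571-74541731, was 3269 bases away, so that 235 bases were covered within 5 kb. Between the positions of Psca and Ly6d, a stretch with Them6, Slurp1, Lypd2, Slurp2 and Lynx1 in the gene table, there were 6 peaks that covered 2.96% of 45 kb. Slurp1, Slurp2 and Lynx1 encode further proteins of the Ly6 fold that act on nicotinic acetylcholine receptors. Between Ly6e and Ly6a, by comparison, 14 peaks covered 27.4% of 40 kb, most of it by the widest peak of the region.

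**Figure D3:**
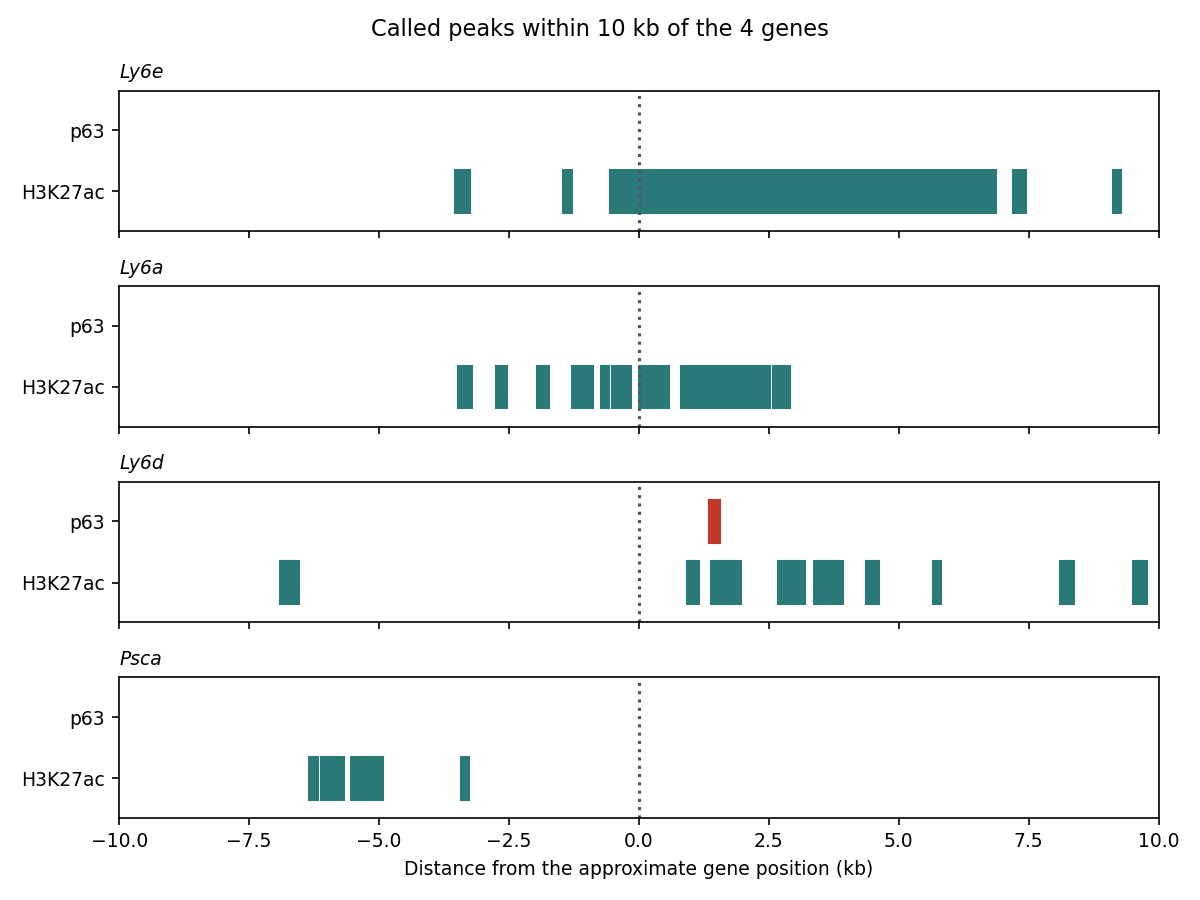
Called H3K27ac peaks (lower row of each panel) and p63 peaks (upper row) within 10 kb of the approximate positions of Ly6e, Ly6a, Ly6d and Psca, with distance in kb. Ly6e has 5 peaks, the widest of 7423 bases, Ly6a a row of 9 peaks, Ly6d a row of narrow peaks with the 1 p63 peak drawn, and Psca 4 peaks below its position.

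The 2 p63 peaks of the region lay in neighbouring steps at and above Ly6d, 23.7 kb apart. A count of 2 is common for a stretch of this length: 24.3% of windows had 2 or more p63 peaks, with a mean of 0.961 per window. By 50 kb steps, 2 of 12 (16.7%) held a p63 peak in the region and 6.91% across the genome. Both p63 peaks shared bases with an H3K27ac peak, as did 34.8% of p63 peaks in the list. Of the 94 H3K27ac peaks of the region, 2 (2.13%) shared bases with p63, against 0.839% in the list. These shares rest on 2 peaks and are not read as a difference.

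The first p63 peak, at 74591341-74591557, was 217 bases wide and lay 1.3 kb above the Ly6d position. It shared 166 bases with an H3K27ac peak of 573 bases at 74591392-74591964. It began 51 bases before that H3K27ac peak, in a gap of 237 bases between it and an H3K27ac peak of 228 bases below. The second p63 peak, at 74615219-74615389, was 171 bases wide and lay wholly inside an H3K27ac peak of 1400 bases at 74614133-74615532, the fourth widest of the region. It lay toward the upper end of that peak, 143 bases from its edge, and a gap of 242 bases followed before the next H3K27ac peak. The median p63 peak of the list is 181 bases wide, so their widths were ordinary.

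**Figure D4:**
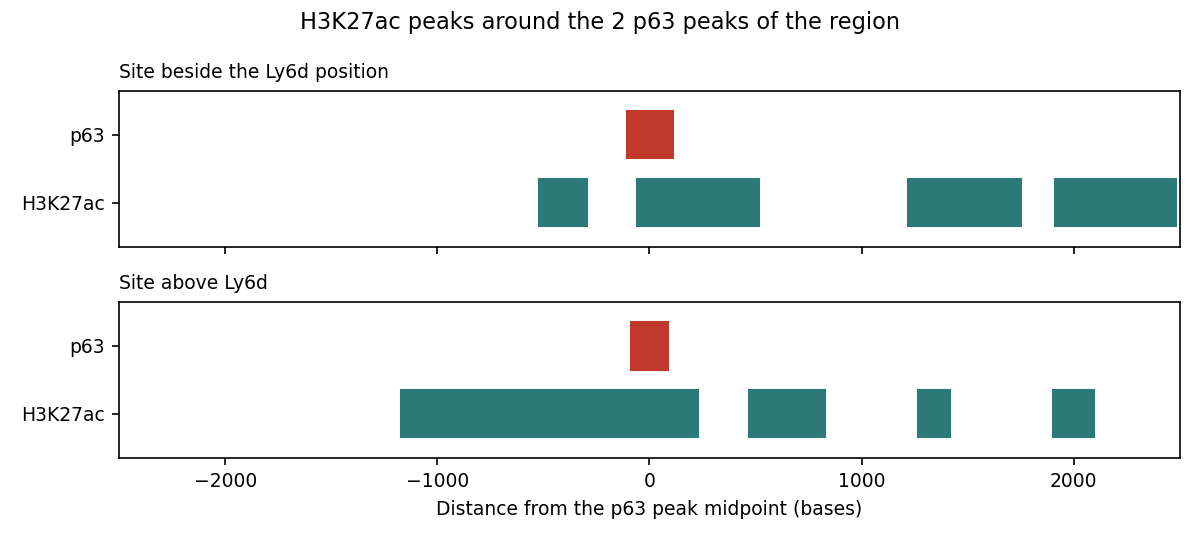
H3K27ac peaks (lower row of each panel) around the 2 p63 peaks of the region (upper row), by distance from the p63 midpoint in bases. The p63 peak near Ly6d reaches 51 bases past the edge of its H3K27ac peak of 573 bases, and the other lies inside a peak of 1400 bases, 143 bases from its edge.

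The part of the region with the most bases in H3K27ac peaks held no p63 peak. From 74615390 upward no p63 peak was called for 1090.4 kb, a stretch that holds Ly6e, Ly6a and 117 H3K27ac peaks covering 44386 bases. This stretch runs 605.8 kb past the upper end of the region, so part of these peaks and bases lie outside the region. Stretches at least as long make up 15.3% of the 4110 gaps between neighbouring p63 peaks, whose median is 234 kb. The stretch was picked because it holds Ly6e, and a share by count does not say how much of the genome lies in such gaps. Of all windows of 600 kb, 53.5% held no p63 peak, so its absence around a gene is common. The nearest p63 peak was 169.1 kb from the H3K27ac peak of 7423 bases and 145.3 kb from the peak of 3505 bases. The 502 H3K27ac peaks of at least 2000 bases in the genome had a median distance of 24.5 kb to p63 and an upper quartile of 112.8 kb, and 17.1% were as far from p63 as the widest peak of the region. From the gene positions, the nearest p63 peak was 1.3 kb away for Ly6d, 46.3 kb for Psca, 169.6 kb for Ly6e and 209.6 kb for Ly6a. On the low side, the next p63 peak outside the region lay 79.9 kb below its start.

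Above the step with Ly6a, H3K27ac peaks were few and narrow beside the rest of the region. From 74850001 to 75100000, 9 H3K27ac peaks covered 1913 bases, or 0.765% of 250 kb, and they ranged from 150 to 273 bases in width. The 350 kb below held 85 peaks that covered 40103 bases, or 11.5%. Against the whole genome the upper part was less unusual. Its steps with a peak had 1072, 373 and 468 covered bases, and 2 further steps had none. The median over all steps, those without a peak included, was 433.5. Of the 12 steps of the region, 3 (25%) had no H3K27ac peak, against 20.1% of steps across the genome, and 2 of these 3 lay above Ly6a. The longest stretches without a peak were 74.6 kb, between Ly6d and Ly6e, and 68.4 and 64.3 kb, both above Ly6a. Gaps at least this long make up 2.69%, 3.17% and 3.53% of all gaps between H3K27ac peaks. As the longest of the many gaps among 94 peaks, they are not read as unusual for the region.

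In the gene table the genes that follow Ly6a are Ly6c1, Ly6c2, Ly6a2, Ly6g, Ly6g2 and Ly6f. Ly6c and Ly6g proteins are markers of monocytes and neutrophils, cells other than the epithelium named by the labels. Which of these genes lie below the upper end of the region on mm9 was not checked. Their promoter sequences were compared with one another, because how reads that match several places were handled is not given by any label. RefSeq promoter sequences of GRCm38.p6, 250 bases before to 50 bases after a start, matched 5 of these 6 genes (not Ly6g2), and the first start listed for each was compared. None was available for Psca, Ly6d, Ly6e or Ly6a. Whether sequence shared between genes is particular to the upper end was therefore not tested. In the 10 pairs of the 5 genes, 82.3 to 98.6% of aligned bases were identical. This share leaves out 1 to 100 bases in gaps inside the alignment, and also unpaired bases at its ends. Between 222 and 295 bases were paired of the 300 of each promoter, and 229 for Ly6g with Ly6f, so identity over whole promoters is lower. The closest pair was Ly6c2 (chr15:75111922-75112221) and Ly6a2 (chr15:75135079-75135378), both on the minus strand of GRCm38.p6, with 291 of 295 aligned bases identical and an identical run of 142 bases. Both are shown because a read from within that run matches each of them. Capitals mark bases that are not identical in the alignment.
Ly6c2: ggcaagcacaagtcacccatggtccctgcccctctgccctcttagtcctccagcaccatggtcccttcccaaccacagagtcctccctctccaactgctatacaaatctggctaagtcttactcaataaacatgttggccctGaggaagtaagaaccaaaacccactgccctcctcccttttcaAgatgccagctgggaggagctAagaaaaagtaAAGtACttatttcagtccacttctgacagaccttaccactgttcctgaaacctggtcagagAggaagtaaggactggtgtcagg
Ly6a2: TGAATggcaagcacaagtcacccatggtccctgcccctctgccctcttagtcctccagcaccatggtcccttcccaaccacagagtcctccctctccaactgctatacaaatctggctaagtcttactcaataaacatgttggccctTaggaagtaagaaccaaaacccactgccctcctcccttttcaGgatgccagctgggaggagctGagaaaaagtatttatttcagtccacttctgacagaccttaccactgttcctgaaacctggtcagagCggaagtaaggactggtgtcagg
The other 9 pairs had between 82.3 and 87.8% identity and identical runs of 18 to 37 bases. Whether reads could be placed over these genes was not tested, so the sparse upper end is not shown to lack acetylation.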

How the data were processed

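p63 and H3K27ac peaks were taken from the 2 lists as deposited, each with 3 columns (chromosome, start, end) and no other values. Bowtie 1.1.1 (a short-read aligner), MACS2 2.1.0 (a peak caller) and the mm9 build are named, per the submitters' processing notes, for the work the authors did before deposit. How peaks were thresholded and duplicate or multiply matching reads handled is not given here by any label. Of the H3K27ac peaks, 1072 lie past the last chromosome 7 gene of the GRCm38 table, so that table served for gene names and order only. Gene positions are the approximate mm9 positions that came with the choice of the region.

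A peak belonged to a window or step by its midpoint. Overlap needed at least 1 shared base, and peaks at most 1 kb apart were joined into domains. Windows and steps spanned each chromosome between its outermost peaks, and ranks among them are descriptions. Promoters were aligned globally (match 1, mismatch -1, gap opening -2, gap extension -0.5). The counting functions were checked on peaks with known answers. The 4 genes with the peaks within 10 kb, the 5 widest H3K27ac peaks, both p63 peaks and the 50 kb steps were described, and these members were chosen with earlier results of these data known. Software comprised Python 3.11.15 with Biopython 1.88, matplotlib 3.10.9, pandas 2.3.3 and numpy 2.4.6.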

Additional observations from a re-analysis of the deposited data

How the results depend on the processing

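Of 33 alternatives to 11 values, 19 stayed within 1.5 times of the value given (for the share of bases, within its Wilson 95% interval over bases, a very narrow limit) and 14 did not. That interval takes bases as independent, which bases of the same peak are not, so it measures no sampling error. Some of the 19 could not move. Both p63 peaks already overlap an H3K27ac peak, so allowing a distance of 1 kb had to keep both. The count is therefore no measure of robustness. Among p63 peaks at least as wide as the median of 181 bases, 1 of the 2 was kept. With 25 kb on each side, 15707 bases were covered around Ly6e and 2948 around Psca, Ly6d (4693) passed Ly6a (4369), and with 5 kb 235 around Psca. These follow from the size of the window. Coverage around Ly6d was 1956 bases when rows past 91878 were left out, against 3230 bases with every row. Among the peaks left out is the one of 573 bases, at row 130820, that shares bases with the first p63 peak. What the order of the rows stands for is not given, so whether these are weaker peaks was not tested. The rank by coverage was 66 for windows shifted down and 1524 for windows shifted up by 300 kb, and 375 by number of peaks, so it depends on where the windows begin. The share of acetylated bases in the top step was 31.8% with steps offset by 25 kb, 26.4% with steps of 25 kb and 55.6% with steps of 100 kb. The top step of 100 kb held Ly6e, whereas those of the other alternatives lay below it. The domain at Ly6e spanned 17865 bases when joined over gaps of at most 2 kb, 21388 at 5 kb and 90513 at 12.5 kb. The join at 12.5 kb and the first rows around single genes were added after seeing the data. No paired analysis was possible because no group has a replicate. Since depth is unknown, a stretch without a called peak is not shown to lack p63 or acetylation.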
